A study of Mus musculus with 9 samples.

Results

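The mouse genome holds many copies of the replication-dependent histone genes, which supply the histones that package newly copied DNA. All 69 of them that the expression tables list were followed here, out of 55335 entries in all: every gene symbol that starts with Hist1 to Hist4 and goes on with the histone type. The list held 6 linker histone H1 genes, 20 H2A genes, 18 H2B genes, 12 H3 genes and 13 H4 genes. The annotation types *Hist1h2aj* and *Hist1h2al*, counted here as H2A genes, as pseudogenes, and both were among the members tested. The question behind the series was which genes depend on mitofusin 1 (MFN1), a protein of the mitochondrial outer membrane, and on the histone variant H3.3 at the 8-cell stage. Embryos of ICR mice from in vitro fertilization were injected as zygotes with nontargeting siRNA (control), siRNA against *Mfn1* (MFN1-KD) or siRNAs against both H3.3 genes, *H3f3a* and *H3f3b* (H3.3-KD). Each group had 3 libraries, and each library was a pool of embryos at the 8-cell stage (the labels and the methods differ on their number, 5 to 10 against 10 in each group), so a value is a mean over whole embryos, and fewer cells with a given RNA cannot be told apart from less of it per cell. Nothing in the sources states that libraries of 1 group came from separate mothers or injection days, and p-values therefore measure only the spread between these libraries.

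Replication-dependent histone genes are active in S phase, when DNA is copied, and they differ from other coding genes at their 3' end. Their mRNA is cut just after a short stem-loop and carries no poly(A) tail. The stem-loop binding protein (SLBP) holds that stem-loop and serves processing, export, translation and decay of the mRNA. In oocytes and early embryos, stored histone mRNA and protein supply the first cell cycles. H3.3 is the other kind of H3: its genes lie outside the clusters, have introns, give polyadenylated mRNA and are used through the whole cell cycle. The libraries were made with an oligo-dT primer, which selects RNA with a run of A. A value here is therefore the part of histone RNA that such a primer can reach, and a change in level and a change in tail cannot be told apart in these data.

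The stem-loop is shown for 5 members because the results turn on them and because it is the feature that sets their RNA apart. The capitals mark the stem-loop, a stem of 6 bases around the loop TTTC, in the sense strand of the GENCODE M21 transcript (build GRCm38). It lies at chr13:21833029-21833044 (minus strand) for *Hist1h2ap*, at chr13:21810898-21810913 (plus strand) for *Hist1h2ao*, at chr13:23751572-23751587 (plus strand) for *Hist1h2ab*, at chr13:23581950-23581965 (plus strand) for *Hist1h4d* and at chr13:23621782-23621797 (minus strand) for *Hist1h1e*.
Hist1h2ap: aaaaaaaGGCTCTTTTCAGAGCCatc
Hist1h2ao: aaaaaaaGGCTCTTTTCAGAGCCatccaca
Hist1h2ab: aaacaaaGGCTCTTTTCAGAGCCacccaca
Hist1h4d: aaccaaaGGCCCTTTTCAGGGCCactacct
Hist1h1e: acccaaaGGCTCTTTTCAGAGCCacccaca
These letters were found in the transcripts of 33 of the 69 members (47.8%), against 37 of 55341 genes of the whole annotation (0.067%). Only an exact stem with this loop, inside the annotated transcript, counted as a match. A member without a match may therefore still have a stem-loop. Some transcripts without a match are short, such as those of *Hist2h2bb* (381 bases) and *Hist1h3i* (411 bases). All 7 H4 members with a stem-loop carried a C-G pair at the fourth stem position, where the 26 members of the other classes carried a T-A pair. The annotated transcripts of *Hist1h2ap*, *Hist1h2ab* and *Hist1h2ao* end 3, 11 and 31 bases after the stem-loop, whereas those of *Hist1h4d* and *Hist1h1e* run on for 770 and 1153 bases.

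The knockdowns were visible in the targeted genes. *H3f3a* was at 1594, 2092 and 2110 FPKM (fragments per kilobase of transcript, scaled to the mapped fragments of the library) in control and at 170, 117 and 161 FPKM in H3.3-KD. *H3f3b* was at 2903, 2895 and 3166 FPKM in control and at 311, 171 and 257 FPKM in H3.3-KD. *Mfn1* was at 51.6, 22.6 and 23.8 FPKM in control and at 9.54, 4.40 and 1.15 FPKM in MFN1-KD. The files hold no counts, and the smallest values put the depth of the libraries at roughly 0.765 to 1 times that of control replicate 1. MFN1-KD replicate 3, the shallowest by that guide, stood apart: 15577 entries were above 0 there, against 19250 to 24820 in the other 8 libraries. By the call rule given below, 6 of 8 cleavage-stage genes were called higher in H3.3-KD (75%, beside 20.2% of all genes tested). None was called in MFN1-KD, beside 1.09% of all genes higher and 2.05% lower. Of the 6, *Cdx2* reached the mean of 1 FPKM needed for a test only through H3.3-KD. Its means were 0.08 FPKM in control, 0.02 FPKM in MFN1-KD and 3.01 FPKM in H3.3-KD. The summed list went the other way, from 10803 to 14018 FPKM in control to 6572 to 8406 FPKM in H3.3-KD. Its most abundant gene, *Dppa3*, had means of 12699 and 6889 FPKM and was not called. In MFN1-KD the list summed to 16865 to 20513 FPKM. The summed level of 7 two-cell genes was 24.3 to 30.9 FPKM in control, reached 222 to 524 FPKM in H3.3-KD and was 23.0 to 89.8 FPKM in MFN1-KD. Of these genes 1 was called, *Tdpoz4*, higher in H3.3-KD (14.3%, beside 20.2% of all genes). Most of the H3.3-KD sum came from *Tdpoz4*, which was at 211, 339 and 467 FPKM there. The 7 oocyte genes summed to 36.0 to 45.1 FPKM in control, with a range of 28.3 to 49.5 FPKM in H3.3-KD and of 24.4 to 48.8 FPKM in MFN1-KD, and none was called. Of 10 cumulus cell genes, 3 were at 0 throughout (*Fshr*, *Lhcgr* and *Inhba*), and the sum, nearly all from *Amhr2*, was 16.1 to 29.8 FPKM in control, with a range of 38.5 to 67.4 FPKM in H3.3-KD, where *Amhr2* was called higher, and of 10.3 to 19.3 FPKM in MFN1-KD. The 6 sperm genes summed to 1.68 to 2.93 FPKM in control and to at most 0.89 FPKM in either knockdown. The part of these cell-type and stage values in the histone results was not tested.

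One H2A gene held most of the histone signal. *Hist1h2ap* was at 2015, 3536 and 2973 FPKM in control, at 2654, 1543 and 772 FPKM in MFN1-KD and at 1248, 1118 and 863 FPKM in H3.3-KD. All H3.3-KD libraries were below all control libraries, whereas the MFN1-KD libraries spread from within the control range to the lowest value of all. It made up 86.9% to 89.0% of the summed FPKM of the 69 genes in control, 79.1% to 92.9% in MFN1-KD and 72.1% to 74.7% in H3.3-KD. Only 7.80% of the 100-base stretches of its transcript occur in no annotated transcript of another gene, most being shared with *Hist1h2ao*, so reads of these near-identical copies could have been credited to either. The other members were low: between 59 and 62 members were above 0 FPKM in a control library, 28 to 35 reached 1 FPKM and 7 to 13 reached 10 FPKM. In MFN1-KD replicate 3, 24 members were above 0. *Hist1h1t*, a testis linker histone, and *Hist1h4f* were at 0 in all 9 libraries. Of the other testis-type members, *Hist1h2aa* was at 2.86 to 7.42 FPKM in control and *Hist1h2ba* at 0.22 to 0.76 FPKM.

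**Figure D1:**
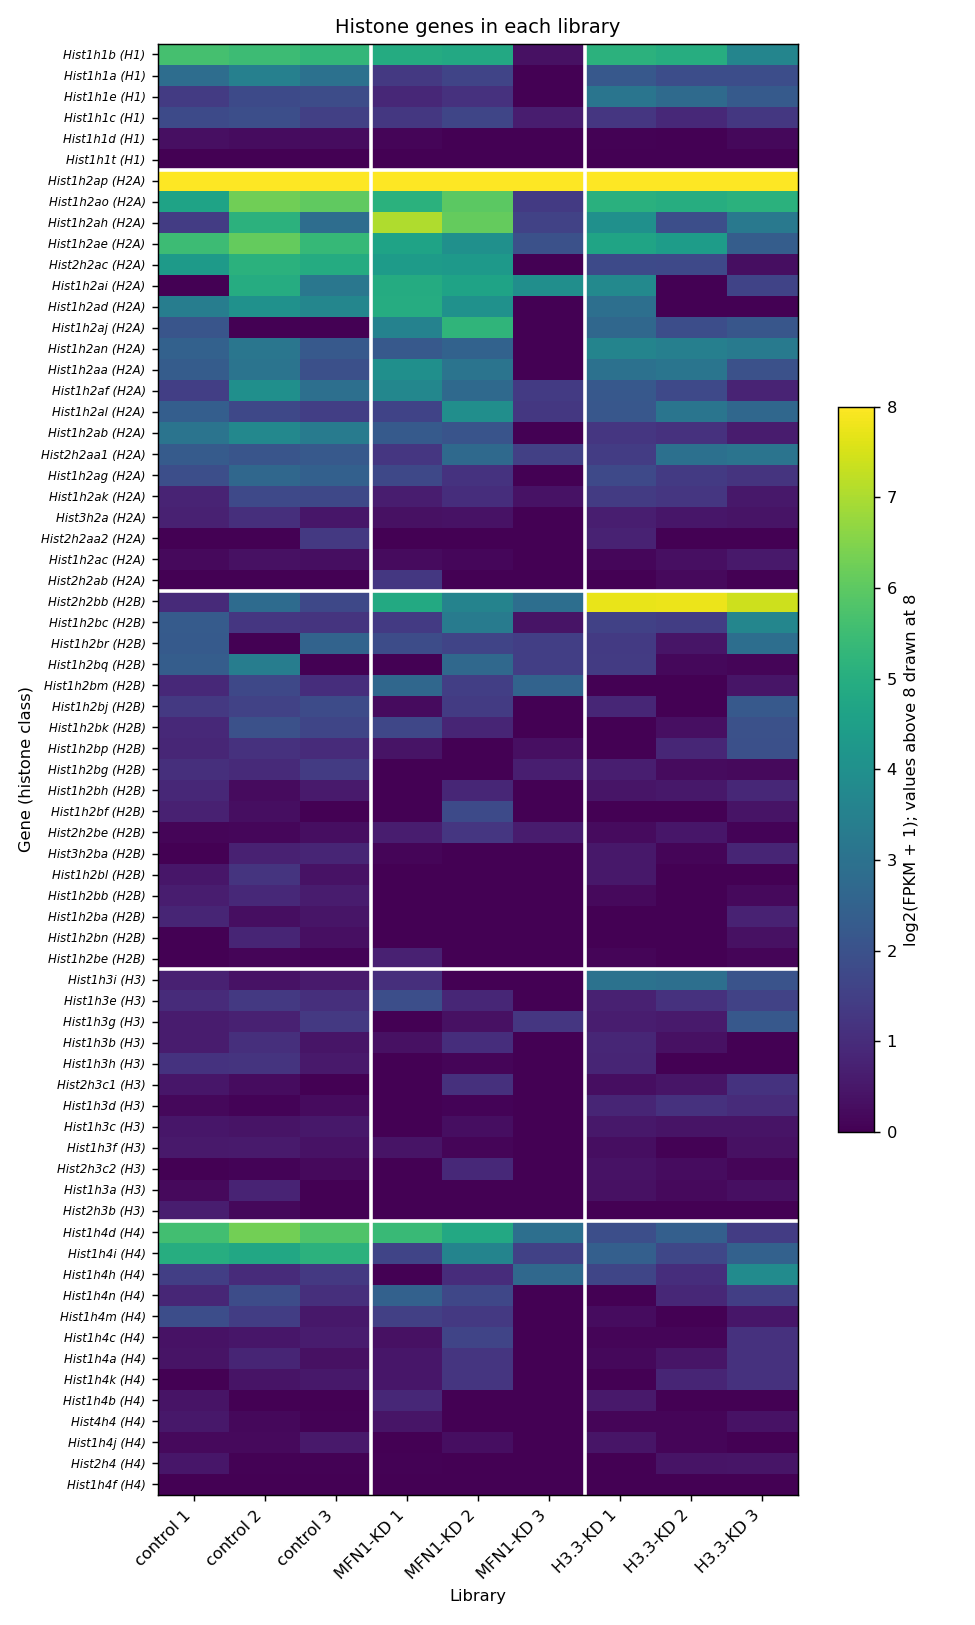
Level of each of the 69 histone genes (rows, by class and then by mean) in each of the 9 libraries (columns), as log2(FPKM + 1) in colour, with values above 8 drawn at 8. *Hist1h2ap* is at the top of the scale in every library, *Hist2h2bb* is bright only in the 3 H3.3-KD columns, and the column of MFN1-KD replicate 3 is mostly dark.

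Summed by class, the histone genes moved in different directions in H3.3-KD. The H4 sum was 84.3, 111 and 94.3 FPKM in control and only 10.6, 10.3 and 26.3 FPKM in H3.3-KD, or 16.3% of the control mean. Most of the control sum came from *Hist1h4d* and *Hist1h4i*, with means of 59.8 and 30.4 FPKM. In H3.3-KD their means were 2.95 and 3.72 FPKM. The other H4 genes had control means of at most 1.64 FPKM, so the fall is that of *Hist1h4d* and *Hist1h4i*. Among the others, the mean of *Hist1h4m* went from 1.64 to 0.20 FPKM and that of *Hist1h4h* from 1.43 to 5.60 FPKM. The H2A sum was 2147, 3852 and 3170 FPKM in control and was 1381, 1216 and 943 FPKM in H3.3-KD, or 38.6% of control, and without *Hist1h2ap* it was 48.3%. The H1 sum was 59.4, 59.7 and 49.7 FPKM in control and was 46.8, 40.4 and 19.6 FPKM in H3.3-KD, or 63.3% of control. In these classes every H3.3-KD library lay below every control library, but without *Hist1h2ap* the H2A sums overlapped, with 133 FPKM in H3.3-KD replicate 1 and 132 FPKM in control replicate 1.

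The H2B and H3 sums went the other way. The H2B sum was 21.3, 30.7 and 19.9 FPKM in control and reached 220, 223 and 197 FPKM in H3.3-KD, or 890% of control. That rise was one gene: without *Hist2h2bb* the H2B sum was 20.9 ± 3.65 FPKM (SD, n = 3) in control and was 14.7 ± 14.7 FPKM in H3.3-KD, 70.3% of control, with overlapping libraries. The H3 sum was 5.99, 6.91 and 4.98 FPKM in control and reached 12.1, 10.95 and 11.9 FPKM in H3.3-KD, or 196% of control. Here too 1 gene made most of the rise: without *Hist1h3i* the H3 sum was 5.34, 6.60 and 4.50 FPKM in control and came to 5.06, 4.30 and 8.81 FPKM in H3.3-KD, 111% of control, with overlapping libraries. Against the summed *H3f3a* and *H3f3b*, the 12 clustered H3 genes were at 0.0940% to 0.139% in control and at 2.52% to 3.80% in H3.3-KD, where the siRNAs lowered the denominator. FPKM is a share of each library, so the amount of histone RNA per embryo was not measured.

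In MFN1-KD the H4, H1 and H3 sums lay below control and the H2A and H2B sums overlapped with it. The H4 sum was 52.6, 48.4 and 14.1 FPKM, or 39.7% of control, and all 3 libraries lay below control. Most of it again came from *Hist1h4d* and *Hist1h4i*, with MFN1-KD means of 25.2 and 5.07 FPKM. The H1 sum was 33.4, 33.1 and 0.83 FPKM, or 39.9% of control, again below control in all 3. The H2A sum was 2976, 1827 and 798 FPKM (61.1% of control), the H2B sum was 41.6, 36.4 and 16.6 FPKM (132%), and both overlapped with the control libraries. The H3 sum was 4.46, 4.69 and 1.40 FPKM, or 59.0% of control, just under the lowest control value. In each class the lowest of the 3 MFN1-KD values belonged to replicate 3.

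**Figure D2:**
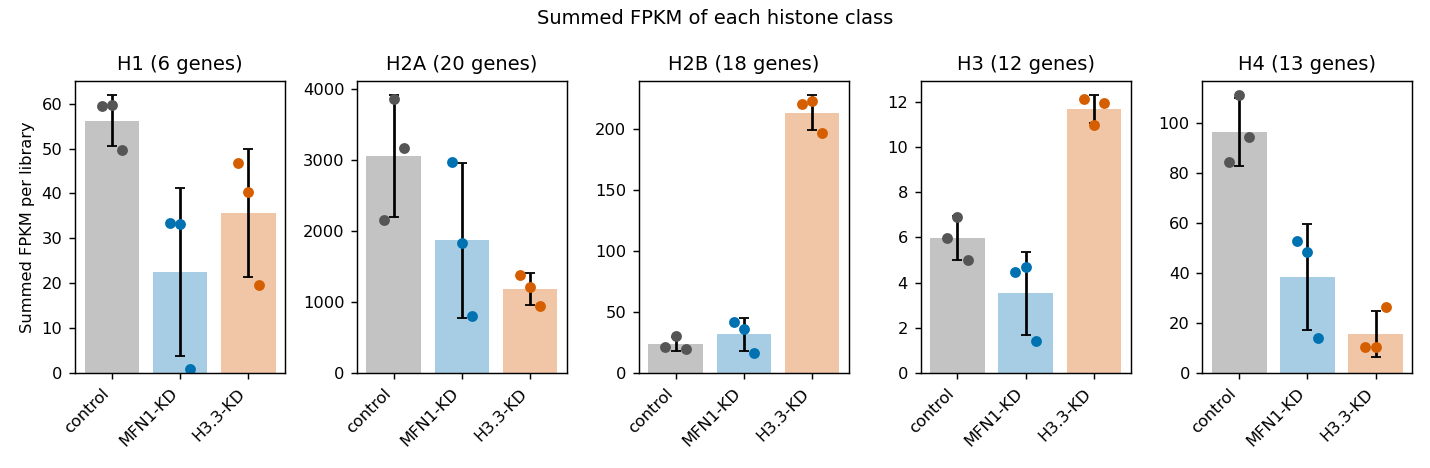
Summed FPKM of the genes of each histone class in each library (points), with the group mean (bars) and SD (error bars, n = 3, cut at 0), on a linear axis that differs between panels. H4, H2A and H1 lie lower in H3.3-KD than in control, H2B and H3 lie higher, and without *Hist2h2bb* (H2B) and *Hist1h3i* (H3) the libraries of these classes overlap with control. The H4 sum in control is mostly *Hist1h4d* and *Hist1h4i*.

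To compare single genes, limma was fitted to log2(FPKM + 1) of all 13011 genes whose mean over the libraries reached 1 FPKM, of which 34 were members. A call needed a change of more than 2-fold and a p under 0.05 after Benjamini-Hochberg adjustment, and fold changes are on the log2(FPKM + 1) scale, which understates changes of low genes. In H3.3-KD, 5 of the 34 members tested were lower (14.7%) and 2 were higher (5.90%), whereas of all genes tested 7.54% were lower and 20.2% were higher. In MFN1-KD, 2 members were lower (5.90%) and none was higher, against 2.05% and 1.09% of all genes. Those shares rested on single libraries: of 409 genes called in MFN1-KD in either direction, limma left 0 when replicate 2 or 3 of control was omitted (2002 and 1979 genes had an unadjusted p under 0.05), 59 when control replicate 1 was, and 1 and 73 when replicate 2 or 1 of H3.3-KD was. With only the control and MFN1-KD libraries fitted, 3 genes were called in MFN1-KD, and with no filter on low values 2 were. No member was called higher in MFN1-KD by limma although 10 members had an unadjusted p under 0.05 in either direction. Most members tested were not called (27 for H3.3-KD, 32 for MFN1-KD), and 8 and 14 of these differed by more than 2-fold without passing. In H3.3-KD the 34 members had a median log2 fold change of -0.58, against 0.26 for all genes. The medians for MFN1-KD were -0.54 and -0.09. Relative to the median gene, the members' median was -0.84 in H3.3-KD, where 25 of 34 lay below it, and -0.45 in MFN1-KD, where 24 did. With no filter on low values the H3.3-KD value was -0.22. The MFN1-KD value was -0.17, with 18 of 34 below, once the GC content and length trend was removed, and -0.23, with 20 below, without MFN1-KD replicate 3. Scaling moved the median gene of H3.3-KD to -0.02 (median-ratio) or -0.17 (upper-quartile), and the members' median relative to it was then -0.77 or -0.78. Both knockdowns were compared with the same 3 control libraries.

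At the threshold the study used (unadjusted p under 0.05, more than 2-fold), 8 members were lower and 3 higher in H3.3-KD, beside 9.39% and 23.9% of all genes. In MFN1-KD 7 were lower and 1 was higher, beside 9.05% and 5.02%. The count of members lower in H3.3-KD rested on single libraries: it was 3 if replicate 2 or 3 of control, or replicate 2 or 3 of H3.3-KD, was left out, and 8 without MFN1-KD replicate 3, which enters through the shared estimate of the spread.

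**Figure D3:**
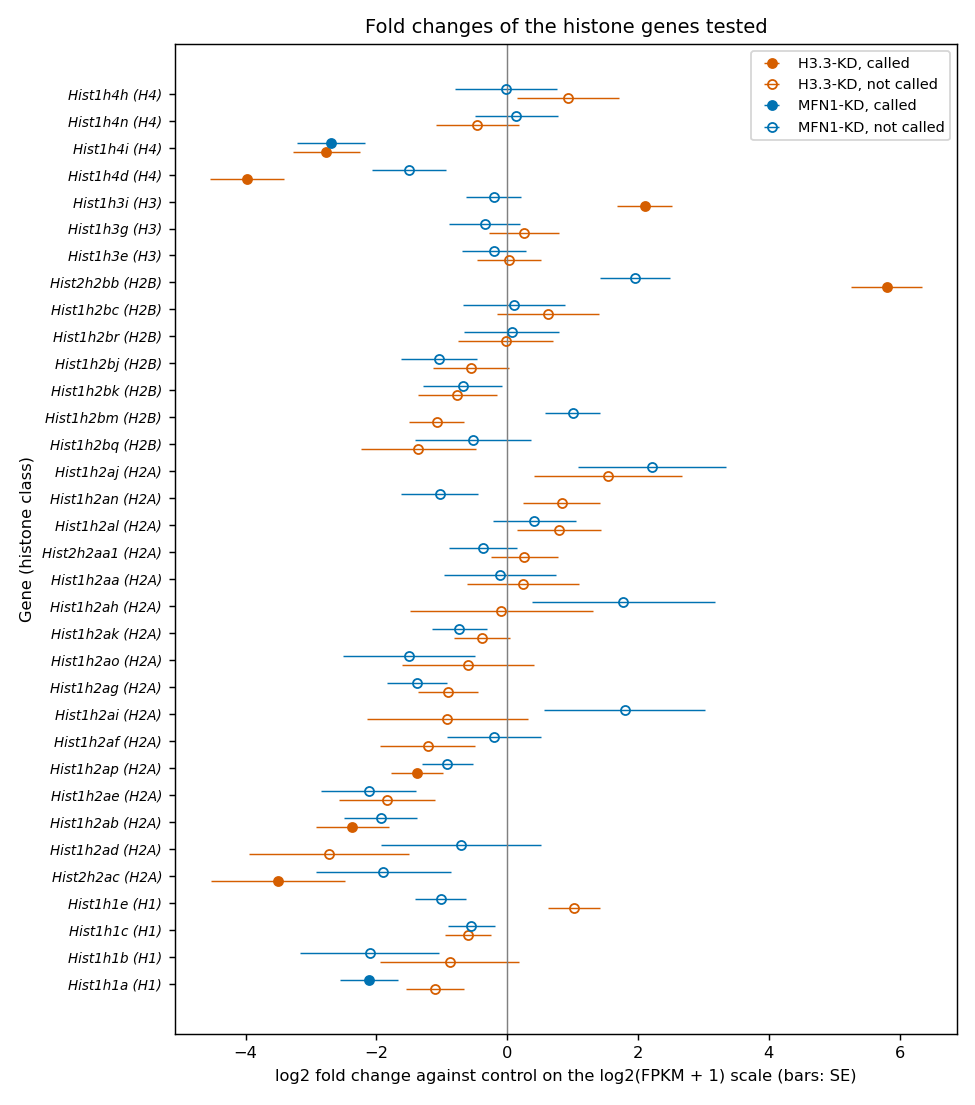
Log2 fold change against control, on the log2(FPKM + 1) scale, of the 34 histone genes tested, in H3.3-KD and MFN1-KD (points; bars are the standard error; filled points were called). Below 0 lie 22 of the 34 points for H3.3-KD and 25 for MFN1-KD, and 7 points are filled for H3.3-KD against 2 for MFN1-KD.

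H4 is among the most conserved histones, and 2 of the 4 H4 genes tested fell in H3.3-KD (50%, beside 7.54% of all genes). *Hist1h4d* was at 46.7, 77.6 and 55.2 FPKM in control and at 2.78, 4.41 and 1.66 FPKM in H3.3-KD. Every H3.3-KD value was below the lowest control value, a log2 fold change of -3.97 ± 0.57 (SE; 15.7-fold lower; limma adjusted p = 0.00075). In MFN1-KD it was at 41.6, 27.4 and 6.58 FPKM, also below control in all 3 libraries but not called (-1.51 ± 0.57, limma adjusted p = 0.15). *Hist1h4i* was at 30.4, 26.5 and 34.3 FPKM in control, at 4.34, 2.23 and 4.58 FPKM in H3.3-KD and at 2.13, 11.1 and 1.94 FPKM in MFN1-KD. The groups did not overlap in either comparison, and it was the one member called in both: -2.77 ± 0.52 in H3.3-KD (limma adjusted p = 0.00303) and -2.70 ± 0.52 in MFN1-KD (limma adjusted p = 0.0343). The MFN1-KD call was lost when any 1 library other than MFN1-KD replicate 2 or H3.3-KD replicate 3 was left out, with limma adjusted p of 0.0522 to 0.152. All of the 100-base stretches of the *Hist1h4d* transcript and 84.9% of those of *Hist1h4i* occur in no annotated transcript of another gene.

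The other H4 genes were low. *Hist1h4m* was at 2.72, 1.75 and 0.44 FPKM in control and at 0.19, 0.00 and 0.41 FPKM in H3.3-KD, with a mean over all libraries too low to test. *Hist1h4h* and *Hist1h4n*, the remaining H4 genes tested, were not called in either knockdown. *Hist1h4h* reached 13.5 FPKM in H3.3-KD replicate 3 and 1.06 to 2.19 FPKM in the other 2 H3.3-KD libraries.

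Among H2A genes, 3 of 16 tested were called lower in H3.3-KD (18.8%, beside 7.54% of all genes) and none was called higher. None was called in MFN1-KD, where 2.05% of all genes were lower and 1.09% higher. H2A pairs with H2B on the outer face of the nucleosome. *Hist1h2ap* fell by 1.38 ± 0.39 on the log2 scale in H3.3-KD (2.60-fold; limma adjusted p = 0.0231) and was at -0.91 ± 0.39 in MFN1-KD (limma adjusted p = 0.194). The H3.3-KD call was lost if replicate 2 or 3 of control, or replicate 2 or 3 of H3.3-KD, was left out, with adjusted p of 0.0542 to 0.0864.

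*Hist2h2ac* was at 19.4, 33.5 and 29.1 FPKM in control and at 2.48, 2.39 and 0.23 FPKM in H3.3-KD. The groups did not overlap, and the change was -3.50 ± 1.03 (11.3-fold lower; limma adjusted p = 0.0277). The call was lost if replicate 2 or 3 of either group was left out (limma adjusted p of 0.0548 to 0.0904), and with a pseudocount of 0.1 FPKM or no filter (0.107 and 0.0774). In MFN1-KD it was at 19.95, 18.7 and 0.00 FPKM, with replicate 1 just above and replicate 2 just below the lowest control value and replicate 3 listed at 0. *Hist1h2ab* was at 7.39, 12.4 and 9.04 FPKM in control, at 1.43, 1.20 and 0.53 FPKM in H3.3-KD and at 3.76, 3.22 and 0.00 FPKM in MFN1-KD. Both knockdowns lay below control throughout. The change was called in H3.3-KD (-2.37 ± 0.56, limma adjusted p = 0.00937) and not in MFN1-KD (-1.94 ± 0.56, limma adjusted p = 0.081). With a pseudocount of 0.1 FPKM the H3.3-KD call of *Hist1h2ab* was lost (limma adjusted p = 0.0804). *Hist1h2ab* overlaps *Gm44484* on the other strand. The control libraries listed *Gm44484* at 91.3, 396.5 and 246 FPKM, the H3.3-KD libraries at 289, 177 and 121 FPKM. Its MFN1-KD values were 90.1, 114 and 10.3 FPKM. Identical values in every library are listed for *Gm44359*, *Gm44367* and *Gm19658*. These lie opposite *Hist1h2ad*, *Hist1h2ai* and *Hist1h2ao*, so the values cannot be tied to the *Hist1h2ab* locus. Use of the strand in counting is not stated, so reads of *Hist1h2ab* and *Gm44484* cannot be told apart. Of the 100-base stretches, 83.1% are unique for *Hist2h2ac* and 47.6% for *Hist1h2ab*.

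*Hist1h2ae* was at 44.1, 68.5 and 40.0 FPKM in control, at 24.3, 20.5 and 4.17 FPKM in H3.3-KD and at 2.97 to 23.8 FPKM in MFN1-KD. It lay below control in all 6 knockdown libraries and passed in neither comparison (limma adjusted p = 0.0809 for H3.3-KD and 0.125 for MFN1-KD). *Hist1h2ag* was at 2.78 to 5.42 FPKM in control, at 1.30 to 2.40 FPKM in H3.3-KD and at 0.00 to 2.33 FPKM in MFN1-KD, and was called in neither. *Hist1h2ao*, the near copy of *Hist1h2ap*, was at 24.0, 76.6 and 65.7 FPKM in control, at 32.9, 30.7 and 33.4 FPKM in H3.3-KD and at 33.7, 62.7 and 1.57 FPKM in MFN1-KD, and overlapped with control in both. Its unique share was 7.30%. Across the class, 13 of 20 genes had fewer than 50% unique stretches.

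**Figure D4:**
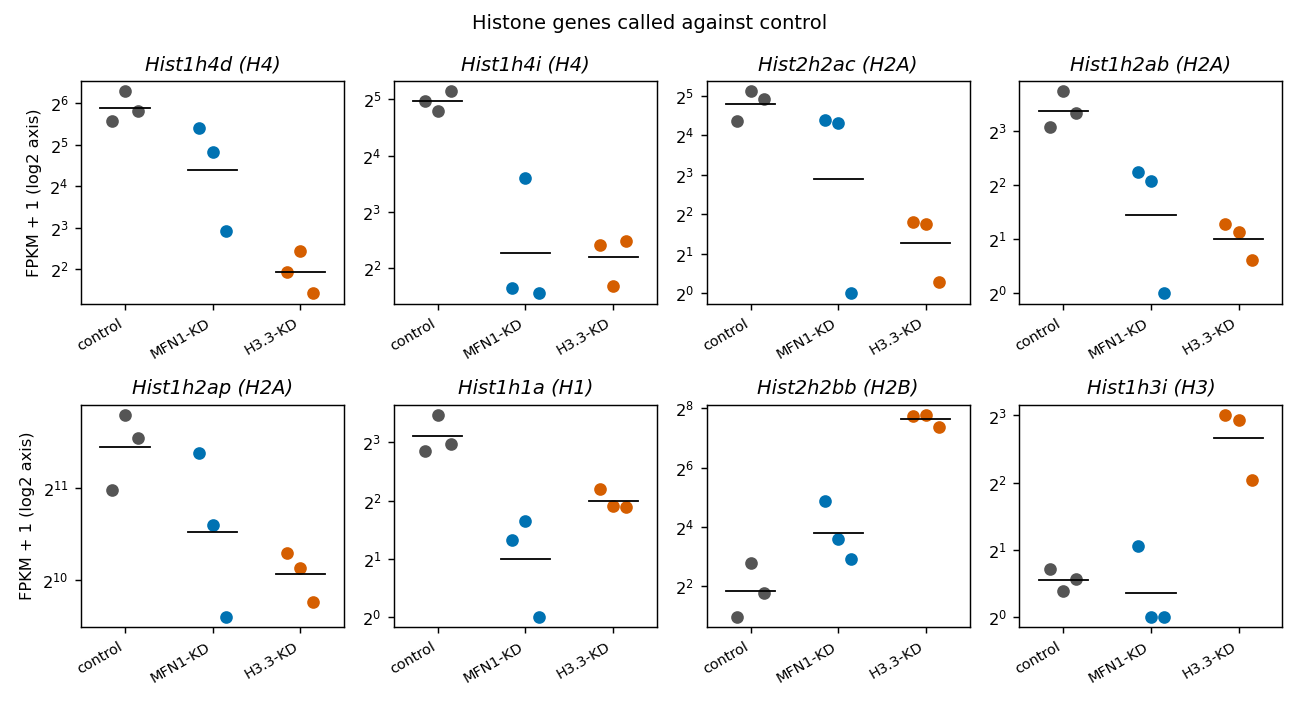
FPKM + 1, on a log2 axis that differs between panels, of the 8 histone genes called in H3.3-KD or MFN1-KD against control, in each library (points), with the mean on the log2 scale (lines). The H3.3-KD points lie below the control points for 6 genes and above them for *Hist2h2bb* and *Hist1h3i*.

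The linker histones H1 bind the DNA between nucleosomes. *Hist1h1b* was the most abundant, at 48.7, 44.1 and 38.1 FPKM in control, at 34.3, 30.9 and 11.5 FPKM in H3.3-KD and 29.5, 27.6 and 0.27 FPKM in MFN1-KD. All knockdown libraries were below control, but the spread within the knockdowns was wide and neither change was called (limma adjusted p = 0.566 and 0.275). *Hist1h1a* was at 6.25, 10.1 and 6.87 FPKM in control, at 1.49, 2.15 and 0.00 FPKM in MFN1-KD and at 3.59, 2.73 and 2.71 FPKM in H3.3-KD. It was called lower in MFN1-KD (-2.11 ± 0.44, limma adjusted p = 0.0382) and not in H3.3-KD (-1.11 ± 0.44, limma adjusted p = 0.0799), and the difference between the knockdowns did not pass either (limma adjusted p = 0.0933). The MFN1-KD call was lost without any 1 of the 3 control libraries or without H3.3-KD replicate 1 or 2 (adjusted p of 0.0603 to 0.158). It was also lost with a pseudocount of 0.1 FPKM, with no filter and with the replicate number as a block. The same held with only the control and MFN1-KD libraries fitted (limma adjusted p of 0.0505 to 0.138 over these 4). *Hist1h1c* was at 1.89 to 2.77 FPKM in control and was called in neither knockdown.

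*Hist1h1e* was the H1 gene that stood on opposite sides of control. It was at 1.65, 2.48 and 2.65 FPKM in control, at 7.55, 5.87 and 3.81 FPKM in H3.3-KD and at 0.86, 1.19 and 0.00 FPKM in MFN1-KD. No group overlapped with another, yet neither knockdown passed against control (limma adjusted p = 0.071 and 0.159). The difference between the knockdowns did pass, with H3.3-KD higher by 2.04 ± 0.39 on the log2 scale (4.11-fold; limma adjusted p = 0.00256).

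*Hist2h2bb*, an H2B gene, rose from among the low genes to the next most abundant member after *Hist1h2ap*. It was at 0.93, 5.91 and 2.36 FPKM in control, at 212, 219 and 165 FPKM in H3.3-KD and at 27.96, 10.95 and 6.48 FPKM in MFN1-KD. The 3 groups did not overlap. In H3.3-KD it rose by 5.80 ± 0.54 on the log2 scale (55.8-fold; limma adjusted p = 0.000118), the smallest p of all members, and it was at 1.95 ± 0.54 in MFN1-KD (limma adjusted p = 0.0737, not called). H3.3-KD was above MFN1-KD by 3.85 ± 0.54 (limma adjusted p = 0.00047). The annotated transcript, at chr3:96269752-96270132 on the plus strand, is 381 bases long, and none of its 100-base stretches is unique. It lies within the antisense RNA *Gm20628* and overlaps the lincRNA *Gm42743* on its own strand. *Gm20628* was at 0.08 to 0.59 FPKM in control and at 0.50 to 1.92 FPKM in H3.3-KD, and *Gm42743* at 0.13 to 0.44 and 0.95 to 1.08 FPKM. The sources do not say that counting used the strand, so reads of *Hist2h2bb* and of these RNAs cannot be told apart.

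Of the 7 H2B genes tested, *Hist2h2bb* was the only 1 called against control (14.3% higher in H3.3-KD, beside 20.2% of all genes). *Hist1h2bm* was at 0.90, 2.35 and 1.05 FPKM in control, at 5.37, 1.80 and 4.85 FPKM in MFN1-KD and at 0.00, 0.00 and 0.38 FPKM in H3.3-KD. It passed in neither knockdown against control and differed between them, with H3.3-KD lower by a log2 change of -2.08 ± 0.42 (limma adjusted p = 0.00325). *Hist1h2bq* and *Hist1h2br*, which share most of their 100-base stretches with each other, were at 0.00 to 9.46 FPKM and 0.00 to 4.79 FPKM in control and were called in neither knockdown.

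The clustered H3 genes were the lowest class, and 3 of 12 could be tested. *Hist1h3i* reached the mean of 1 FPKM needed for a test only through H3.3-KD. Its group means were 0.48 FPKM in control, 0.36 FPKM in MFN1-KD and 5.61 FPKM in H3.3-KD. Its call in H3.3-KD was also made with no filter on low values. *Hist1h3i* was at 0.65, 0.31 and 0.48 FPKM in control and at 7.05, 6.65 and 3.13 FPKM in H3.3-KD. Every H3.3-KD value was above every control value, with a log2 fold change of 2.10 ± 0.42 (4.30-fold; limma adjusted p = 0.00422). In MFN1-KD it was at 1.09, 0.00 and 0.00 FPKM and overlapped with control, and H3.3-KD was above MFN1-KD by 2.31 ± 0.42 (limma adjusted p = 0.00185). Only 31.4% of the 100-base stretches of the *Hist1h3i* transcript are unique, and the gene that shares the most of them is *Hist1h3h*. Reads of other H3 copies could therefore have been credited to *Hist1h3i*. *Hist1h3g* was at 0.51, 0.65 and 1.53 FPKM in control and at 0.57, 0.49 and 3.58 FPKM in H3.3-KD, and *Hist1h3e* at 0.96 to 1.52 and 0.67 to 2.00 FPKM; both overlapped. *Hist1h3h* was at 0.46 to 1.29 FPKM in control and at 0.76, 0.00 and 0.00 FPKM in H3.3-KD, below the level needed for a test. The proteins encoded by these genes are the replication-coupled H3 that stands beside H3.3 in chromatin, and protein was not measured.

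The test of H3.3-KD against MFN1-KD called 6 members of 34, 4 higher in H3.3-KD (11.8%) and 2 lower (5.90%), beside 25.8% and 9.44% of all genes. Those higher were *Hist2h2bb*, *Hist1h3i*, *Hist1h1e* and *Hist1h2an*, and those lower were *Hist1h4d* and *Hist1h2bm*. *Hist1h4d* differed by -2.47 ± 0.57 (limma adjusted p = 0.00667). *Hist1h2an*, at 11.1, 9.88 and 8.88 FPKM in H3.3-KD and 3.75, 4.72 and 0.00 FPKM in MFN1-KD, differed by 1.86 ± 0.59 (limma adjusted p = 0.0294). That call was kept in 2 of 8 alternatives, was lost under both scalings, and was lost without any 1 H3.3-KD library (limma adjusted p of 0.0615 to 0.0771). Only 16.7% of the 100-base stretches of the *Hist1h2an* transcript are unique. It overlaps *Gm44346* on the other strand, at 232, 249 and 0.00 FPKM in H3.3-KD and 0.00 FPKM in every MFN1-KD library. Without MFN1-KD replicate 3 the count was 11. *Hist1h4i* did not separate the knockdowns (-0.07 ± 0.52, limma adjusted p = 0.93).

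The promoters of 4 members are shown because 2 of these genes fell and 2 rose in H3.3-KD, each by the call above. Each line is the 100 bases before the RefSeq start (build GRCm38.p6), and the capitals mark TATAAA in the sense direction and CCAAT or ATTTGCAT in either direction, so that CCAAT also appears as ATTGG. *Hist1h4d* is shown at chr13:23581468-23581567 (plus strand), *Hist1h4i* at chr13:22041363-22041462 (minus strand), *Hist2h2bb* at chr3:96269600-96269699 (plus strand) and *Hist1h3i* at chr13:21783398-21783497 (minus strand).
Hist1h4d: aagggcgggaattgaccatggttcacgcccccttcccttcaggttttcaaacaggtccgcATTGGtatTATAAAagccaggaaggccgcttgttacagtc
Hist1h4i: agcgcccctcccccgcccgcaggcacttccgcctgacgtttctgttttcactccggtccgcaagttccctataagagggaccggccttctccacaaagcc
Hist2h2bb: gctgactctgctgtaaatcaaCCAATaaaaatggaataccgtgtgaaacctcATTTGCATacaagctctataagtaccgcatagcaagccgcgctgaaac
Hist1h3i: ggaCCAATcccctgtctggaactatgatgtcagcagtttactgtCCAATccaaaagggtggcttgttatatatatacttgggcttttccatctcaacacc
CCAAT is bound by NF-Y, ATTTGCAT is the octamer bound by OCT factors and long known from H2B promoters, and TATAAA is the core of the TATA box. RefSeq promoters were found for 62 of the 69 members. In the 250 bases before the start, CCAAT was in 51 of them (82.3%) against 33.9% of all 32851 promoters, TATAAA in 24 (38.7%) against 7.59%, and ATTTGCAT in 13 (21.0%) against 1.60%. CCAAT was in all 18 H2A and all 16 H2B promoters and in 3 of 12 H4 promoters, and ATTTGCAT was in 7 H2A and 6 H2B promoters and in none of the other classes. The *Hist2h2bb* window holds the octamer 48 bases before the start. The windows overlap where H2A and H2B genes start back to back, so these promoters are not independent, and a match of letters is not a binding site.

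By position, 2 of the 3 main groups of histone genes held both rises and falls in H3.3-KD. The Hist1 genes on chromosome 13 fall into a block of 24 genes over 328 kb and a block of 31 genes over 404 kb. The pseudogene *Hist1h2aj* is counted in the block of 24, and the pseudogene *Hist1h2al* lies farther on. On chromosome 3, 10 Hist2 genes lie within 50.3 kb. Of all genes tested, 7.54% were called lower and 20.2% higher in H3.3-KD. There, the block of 24 genes held 2 genes called lower and 1 called higher, of 17 tested. The block of 31 genes held 2 called lower, of 13 tested, and the Hist2 genes held 1 of each, of 3 tested. *Hist2h2ac*, which fell, and *Hist2h2bb*, which rose, are therefore in 1 cluster, 0.50 and 49.9 kb from its first gene. The medians of the 2 Hist1 blocks were -0.60 and -0.60 on the log2 scale.

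**Figure D5:**
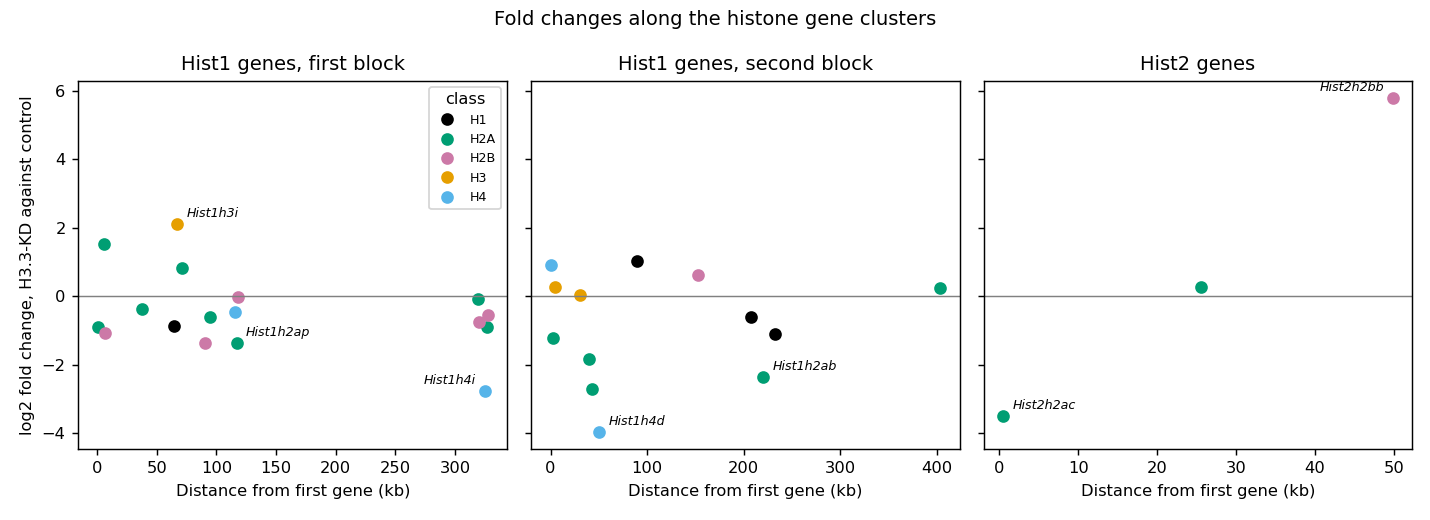
Log2 fold change in H3.3-KD against control of the tested histone genes by distance in kb from the first gene of their block, coloured by class, for both Hist1 blocks and the Hist2 genes. The genes called are named, and called genes with falls and rises lie together in the block of 24 genes and among the Hist2 genes, with *Hist2h2ac* at -3.50 and *Hist2h2bb* at 5.80 at opposite ends of the Hist2 genes.

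Neighbours in head-to-head pairs were listed at unequal levels, but a longer annotated transcript by itself lowers FPKM, and near copies can share reads. In 13 pairs an H2A and an H2B gene started 175 to 305 bases apart in opposite directions, and the H2A gene had the higher control mean in 11 of them. *Hist1h2ap* had a control mean of 2841 FPKM and its partner *Hist1h2br* 2.85 FPKM. Their longest annotated transcripts have 482 and 2197 bases, and 7.80% and 14.2% of the 100-base stretches are unique. *Hist2h2ac* (520 bases) had 27.3 FPKM and its partner *Hist2h2be* (2620 bases) 0.13 FPKM. *Hist1h2ae* (704 bases) had 50.9 FPKM and its partner *Hist1h2bg* (618 bases) 1.23 FPKM. In H3.3-KD the H2A gene of the *Hist2h2ac* pair was at 1.70 FPKM and the H2B gene at 0.21 FPKM.

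Levels were also set beside the annotated 3' end, although FPKM divides by transcript length, so that a longer annotated end by itself lowers the value. Of 17 members whose transcript ends within 100 bases of the stem-loop, 12 had a control mean of at least 1 FPKM, and their median was 1.503 FPKM. Of 16 members whose transcript runs on for more than 100 bases, 5 did, and their median was 0.45 FPKM. In the 36 members with no stem-loop letters in the transcript the median was 1.06 FPKM. These are descriptions over genes that share sequence and annotation, with no test.

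The machinery of histone mRNA 3' ends was expressed in every group. *Slbp* was at 142, 145 and 168 FPKM in control, at 155, 140 and 200 FPKM in H3.3-KD and 135, 125 and 214 FPKM in MFN1-KD, and was called in neither. *Lsm10* and *Lsm11*, the proteins found only in the U7 snRNP that cuts histone pre-mRNA, were at 16.5 to 23.2 FPKM and 0.37 to 1.20 FPKM in control, and *Lsm11* rose to 4.12 to 6.82 FPKM in H3.3-KD (limma adjusted p = 0.00995). Of 18 genes of this list tested, 4 were higher in H3.3-KD (*Lsm11*, *Sympk*, *Cstf2t* and *Snrpd3*) and 2 lower (*Snrpe* and *Snrpf*), 22.2% and 11.1% beside 20.2% and 7.54% of all genes, and 1 was lower in MFN1-KD (*Snrpb*). *Snrpd3* went from 59.5 ± 5.86 to 220 ± 20.3 FPKM and *Snrpf* from 297 ± 40.9 to 76.4 ± 20.4 FPKM in H3.3-KD (SD, n = 3). These Sm proteins also belong to the spliceosome. *Snrpb* went from 449 ± 57.9 to 171 ± 83.1 FPKM in MFN1-KD (SD, n = 3; limma adjusted p = 0.0479).

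Of 10 genes that act in histone gene transcription, 5 were higher in H3.3-KD (beside 20.2% of all genes), none was lower, and none was called in MFN1-KD. Among them *Ccne1*, the cyclin E that switches on NPAT with CDK2, went from 83.4 ± 25.5 to 213 ± 4.43 FPKM (SD, n = 3), while *Ccne2* was at 15.4 ± 2.17 and 6.44 ± 1.67 FPKM and was not called. *Npat*, the coactivator at histone genes, was at 7.93 ± 2.06 FPKM in control and 15.3 ± 3.49 FPKM in MFN1-KD and was not called. Of 30 genes of DNA synthesis, 9 rose and 4 fell in H3.3-KD (30% and 13.3%, beside 20.2% and 7.54% of all genes), among them the licensing factor *Cdc6* (47.4 ± 14.3 to 167 ± 11.6 FPKM) and the clamp loader subunit *Rfc4* (126 ± 26.2 to 35.8 ± 19.1 FPKM). In MFN1-KD 1 was lower, *Tk1*, the thymidine kinase of S phase (136 ± 7.61 to 34.6 ± 18.8 FPKM). Of 10 genes tested for translation and decay of histone mRNA, 2 rose and 1 fell in H3.3-KD, beside the same 20.2% and 7.54%, and none was called in MFN1-KD. In H3.3-KD *Ddx19a*, an RNA helicase, went from 7.06 ± 1.88 to 32.99 ± 2.41 FPKM and *Lsm1*, of the decapping machinery, from 25.8 ± 6.73 to 9.76 ± 0.69 FPKM.

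Genes that make or bind poly(A) tails matter for a library primed with oligo-dT. Of 13, 4 were higher in H3.3-KD (30.8%, beside 20.2% of all genes), and none was called in MFN1-KD. *Cpsf4*, which binds the poly(A) signal, went from 13.0 ± 1.09 to 89.7 ± 40.8 FPKM in H3.3-KD (SD, n = 3; limma adjusted p = 0.00035). Of 11 replication-independent histone genes tested, 3 rose and 3 fell in H3.3-KD, beside 20.2% and 7.54% of all genes, and none was called in MFN1-KD. The genes that fell included both targets. Of those that rose, *H1fx* reached the mean of 1 FPKM needed for a test only through H3.3-KD. Its means were 0.00 FPKM in control, 0.05 FPKM in MFN1-KD and 13.1 FPKM in H3.3-KD. *H2afx*, the H2A variant of DNA repair, went from 26.3 ± 8.65 to 369 ± 128 FPKM in H3.3-KD (SD, n = 3; limma adjusted p = 7.8e-05), while it was at 22.2 ± 1.58 FPKM in MFN1-KD.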

How the data were processed

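Libraries were made by the Smart-Seq2 method with an oligo-dT primer and sequenced as paired 150-base reads, and the submitters' processing notes name cutadapt 1.16, STAR and the build mm10. The authors deposited 1 table of FPKM per library with 55335 gene symbols, rounded to 2 decimals; the tool that made the FPKM values is not given in the sources used here, and the handling of reads that fit several copies is not stated either. FPKM is relative to the library, and depth is unknown except for a rough guide from the smallest values. All 9 libraries entered 1 limma-trend model (limma 3.58.1, R 4.3.3; trend and robust) on log2(FPKM + 1) of the 13011 genes whose mean over the libraries reached 1 FPKM, without covariates and with Benjamini-Hochberg adjustment over all genes; the script was tested on simulated data. No count test was run because the files hold no counts. An exact permutation test of 3 against 3 libraries cannot go below p = 0.10, so none was used. The members matched GENCODE M21 (GRCm38) by symbol in 69 of 69 cases, and promoters came from RefSeq (GRCm38.p6). Uniqueness is the share of 100-base windows of the longest transcript that occur in no annotated transcript of another gene, on either strand.

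The members and gene lists were chosen with earlier results of these data known. Named with values were, in each class, the 3 genes highest in control and the 2 with the smallest limma p in each knockdown, the groups at 0 or of testis type, from each list up to 2 genes per knockdown (lowest p, and largest move against the list's median), and the targets. Any gene of 3'-end processing could be named, and only some were. *Hist2h2ac*, *Hist1h2an*, *Hist1h4h*, *Hist1h4n*, *Cdx2*, *H1fx* and members of head-to-head pairs were named after their values were seen. Alternatives were the pseudocount, filters, scaling, the libraries fitted, a replicate block, a GC content and length correction, array weights and the study's threshold; leaving single dominant genes out of the class sums was added after the data were seen. Deviations of same-numbered libraries correlated weakly (-0.05 to 0.16 over 9 pairs, with 2 over 0.1), and 4 of the 9 correlated best with their own number. Numbers were not treated as pairs in the main model, and a block on the number was an alternative.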

Additional observations from a re-analysis of the deposited data

How the results depend on the processing

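The calls of *Hist1h4d*, *Hist1h4i*, *Hist1h3i* and *Hist2h2bb* in H3.3-KD held under all alternatives in which the gene could be tested, those that left out 1 library included. Members lower in H3.3-KD numbered 5, but 3 with no filter on low values, 8 in the 6 libraries compared only, 13 with array weights, 8 at the study's threshold and 3 to 8 with 1 library left out. Members higher numbered 2, but 1 with a mean of at least 10 FPKM and 4 with array weights. In MFN1-KD, members higher numbered 0, but 1 with a mean of at least 10 FPKM, the GC content and length trend removed, array weights or the study's threshold, and 0 to 1 with 1 library left out (1 without MFN1-KD replicate 3). Members lower in MFN1-KD numbered 2, but 1 with a pseudocount of 0.1 or a mean of at least 10 FPKM, 0 with no filter or in the 6 libraries compared only, 7 at the study's threshold and 0 to 2 with 1 library left out. With the replicate number as a block that count was 0, and the block moved no other count of members by more than 1.5 times but took the calls over all genes in MFN1-KD from 409 to 31; 4 of 9 same-numbered pairs correlated best with their own number. Members that differed between the knockdowns numbered 6, but 2 with a mean of at least 10 FPKM (fewer members tested) and 5 to 11 with 1 library left out, 11 without MFN1-KD replicate 3. The cause of these moves was otherwise not tested.

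In H3.3-KD the members had a median log2 fold change of -0.58, but -0.91 with a pseudocount of 0.1, -0.18 with no filter, -1.15 with a mean of at least 10 FPKM, -0.95 with upper-quartile scaling and -0.95 with array weights. In MFN1-KD it was -0.54, but -1.50 with a mean of at least 10 FPKM, -1.13 with a pseudocount of 0.1, -0.32 with no filter, -0.27 with the GC content and length trend removed and -0.22 without MFN1-KD replicate 3. Median-ratio and upper-quartile scaling put the H3.3-KD sums at 29.7% and 26.4% of control for H2A, 694% and 614% for H2B, and 154% and 136% for H3. With 1 library left out, the H2B sum was 820% to 1036% and the H3 sum 181% to 213% of control. Leaving *Hist1h2ap* out put the H2A sum at 48.3% of control for H3.3-KD and at 97.9% for MFN1-KD, leaving *Hist2h2bb* out put the H2B sum at 70.3% and leaving *Hist1h3i* out put the H3 sum at 111% in H3.3-KD. All other class sums moved by less than 1 SD of the libraries, and no called value changed sign. Members under 1 FPKM could not be tested.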
